A study of Mus musculus with 12 samples.

Results

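The genes described here are 10 mouse genes that report or limit signalling through the kinase ERK: the phosphatase genes Dusp4, Dusp6 and Dusp8, the inhibitor genes Spry1, Spry2, Spry4, Spred1 and Spred2, and the transcription factor genes Etv4 and Etv5. They were taken by symbol, with earlier results of these data known, and all 10 were among the 24015 gene rows of every file. The libraries came from embryoid bodies, aggregates in which mouse embryonic stem cells differentiate in suspension. There were 4 groups of 3 libraries: control and Trim33-deficient bodies, each collected on day 2 and on day 2.5. The stem cell lines were made from embryos of an outbred strain, carried 2 floxed copies of Trim33 and the UbcCreERT2 transgene, and were at passages 8 to 10. The transgene is a Cre recombinase under the ubiquitin C promoter that acts in the nucleus once tamoxifen binds it, so it is not restricted to 1 cell type. Before differentiation all cells were kept feeder-free in LIF and 2i, and loss of Trim33 was induced with 4-hydroxytamoxifen on day 1, at 24 hours. The labels call the control libraries wildtype, whether those cultures also received tamoxifen is not given in the sources used here, and they mention 3 independent pairs without saying how many lines or clones lay behind them or whether the replicate number marks a pair. P-values therefore measure the spread between these libraries, which may be technical in part.

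ERK is activated when a growth factor such as FGF4 binds its receptor and the signal passes through RAS, RAF and MEK. Active ERK raises the transcription of genes that damp the same pathway, so the RNA of these feedback genes is often used as a readout of ERK activity. In mouse embryonic stem cells FGF and ERK signalling promotes exit from the naive pluripotent state, and the 2i medium holds cells in that state with an inhibitor of MEK and an inhibitor of GSK3. Trim33 is a chromatin-binding protein of the TIF1 family that takes part in TGF-beta family signalling.

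Depth lay between 10066338 and 16529627 gene counts per library, and levels are given as CPM, counts scaled to a common size with TMM factors. CPM is not corrected for gene length, so levels are compared between libraries and not between genes unless stated. Trim33 itself stood at 239 to 277 CPM in the 6 control libraries and at 54.4 to 69.6 CPM in the 6 Trim33-deficient ones, as the labels say. Markers of pluripotent cells summed to 1604 to 1794 CPM over all libraries, largely Pou5f1 and Sall4. Of these 5 markers 0 rose and 1 fell without Trim33 on day 2, and 2 rose and 1 fell on day 2.5. Nanog had means of 114 CPM in control and 75.8 CPM without Trim33 on day 2, and of 182 and 75.8 CPM on day 2.5. Each list for streak and mesoderm, neuroectoderm, endoderm, trophoblast and fibroblasts summed to at most 43.9 CPM in every library, and the defining genes Afp, Ttr, Elf5 and Postn were at 0 or at most 0.240 CPM. Of the 6 naive pluripotency markers 3 rose without Trim33 on day 2 and 6 on day 2.5, and their sum was 127 to 134 CPM in day 2 control, 207 to 294 CPM in day 2 Trim33-deficient, 80.2 to 87.3 CPM in day 2.5 control and 261 to 340 CPM in day 2.5 Trim33-deficient libraries. The sum of the 4 primed epiblast markers ran the other way, at 3901 to 4384, 2846 to 3317, 3424 to 4045 and 2061 to 2646 CPM in the same order. Of the 4, 1 fell on day 2 and 3 on day 2.5. Most of that sum was Dnmt3b, with group means of 3478, 2515, 3211 and 1884 CPM. Pou3f1 was not lower on day 2.5, with means of 273 CPM in control and 309 CPM without Trim33. The sum of the 5 trophoblast markers was low but also higher without Trim33. It was 6.22 to 7.21, 11.9 to 18.9, 6.30 to 8.26 and 26.1 to 28.3 CPM in the same order. Most of it was Tfap2c, with means on day 2.5 of 4.87 CPM in control and 20.8 CPM without Trim33. Of the 4 trophoblast markers tested, 1 rose on day 2 and 3 on day 2.5, and 0 fell. In RNA from whole bodies, a changed share of cells and a changed amount of RNA per cell cannot be told apart. In 3 libraries the values departed from their groups. Rn45s, the precursor of ribosomal RNA, made up 7.87% of the counts of replicate 1 without Trim33 on day 2 and 11.9% of those of control replicate 2 on day 2.5, and 0.609 to 1.67% in the remaining 10. The control libraries numbered 2 on both days were also high in 14 hypoxia response genes, whose mean log2 level, set against the average library, was 0.63 and 0.44 where the other 10 lay between -0.35 and 0.05.

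Most of the feedback genes were higher without Trim33 on day 2.5. Of the 10, 7 rose (Dusp4, Dusp6, Dusp8, Spry2, Spry4, Spred1 and Etv4), 0 fell and 3 did not pass (Spry1, Spred2 and Etv5), by edgeR's quasi-likelihood test with Benjamini-Hochberg adjustment over 14356 genes. Over all genes tested 42.8% passed, 22.0% upward and 20.7% downward, and the median log2 fold change was 0.47 over the 10 genes and -0.01 over all genes. At an unadjusted p under 0.05 1 member, Spry1, was lower, and DESeq2 called that 1 member lower as well. On day 2, 3 members rose (Dusp4, Dusp8 and Spry2) and 0 fell, where 9.84% of all genes passed, 5.94% upward and 3.90% downward, with a median of 0.24 over the 10 genes and -0.00 over all genes. The number lower on day 2 was also 0 at an unadjusted p under 0.05 and by DESeq2. The 3 Trim33-deficient libraries lay wholly above the 3 controls for 8 members on day 2.5 and for 4 members on day 2, and the share of all tested genes without overlap was 53.0% and 29.4%. The naive and trophoblast marker sums given above moved in the same direction as these genes on both days and the primed epiblast sum in the opposite one. On day 2.5 the low streak, endoderm and fibroblast sums were also smaller without Trim33. The part of any of these sums in the result was not tested.

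**Figure D1:**
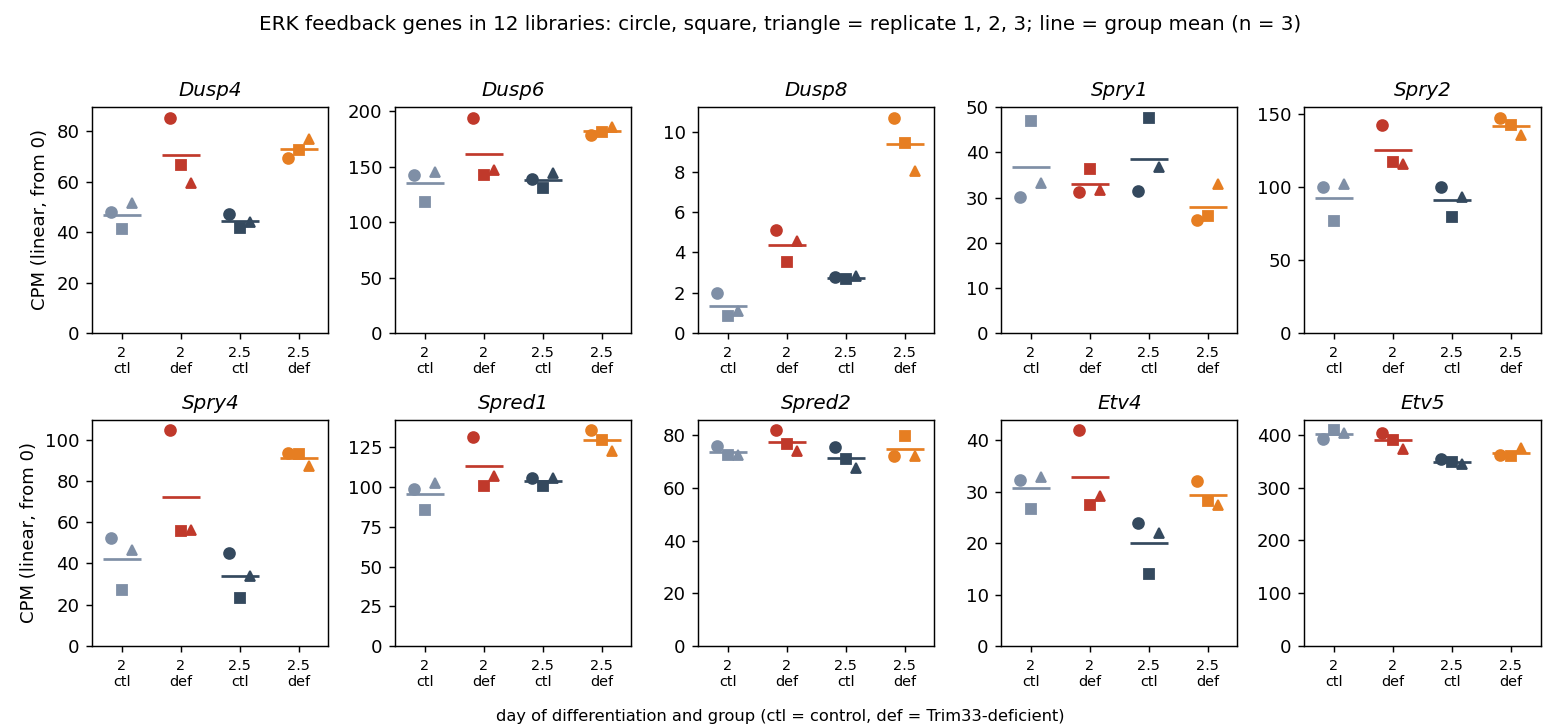
Level of each of the 10 genes in each of the 12 libraries, in CPM on a linear axis from 0, by day and genotype; symbols mark the replicate number and lines the group means. On day 2.5 the 3 Trim33-deficient libraries lie above the 3 controls for 8 of the 10 genes, and Spry1 and Spred2 are the exceptions.

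The Dusp genes encode dual-specificity phosphatases that remove phosphate from MAP kinases. Dusp6 is a cytoplasmic phosphatase selective for ERK and among the most used readouts of FGF signalling. On day 2.5 it stood at 139, 131 and 144 CPM in control replicates 1, 2 and 3 and at 179, 182 and 186 CPM in the Trim33-deficient ones. The groups did not overlap, and the rise was 1.32-fold (log2 0.40 ± 0.11 SE, adjusted p = 0.00896). On day 2 Dusp6 stood at 143, 118 and 146 CPM in control and 195, 143 and 148 CPM in Trim33-deficient libraries. Control replicate 2 was low and Trim33-deficient replicate 1 high, the groups overlapped, and the difference did not pass (log2 0.25 ± 0.11, adjusted p = 0.172). Dusp6 ranked from day 2 control through day 2.5 control and day 2 Trim33-deficient to day 2.5 Trim33-deficient, and each pair of neighbours in this order overlapped.

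Dusp4, a nuclear phosphatase that is itself induced by ERK, rose on both days. It stood at 48.2, 41.3 and 51.5 CPM in day 2 control libraries and at 85.5, 66.5 and 59.6 CPM in day 2 Trim33-deficient ones (1.49-fold, log2 0.57 ± 0.11, adjusted p = 0.00870). On day 2.5 the values were 47.1, 41.7 and 44.1 CPM in control and 69.3, 72.4 and 77.1 CPM without Trim33 (1.65-fold, log2 0.72 ± 0.11, adjusted p = 0.000210). All 6 Trim33-deficient libraries were above all 6 controls, while the days overlapped within each genotype. The ratio of Dusp4 to Dusp6 counts, which leaves library size out, was 0.305 to 0.354 in the 6 control libraries and 0.388 to 0.466 in the 6 others.

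Dusp8, a phosphatase that acts mainly on the kinases JNK and p38, had the largest rise among the 10 and the lowest level. Its counts were 25, 11 and 14 in day 2 control and 48, 56 and 74 in day 2 Trim33-deficient libraries, then 42, 30 and 45 in day 2.5 control and 147, 129 and 135 in day 2.5 Trim33-deficient libraries. In CPM the group means were 1.32 ± 0.605, 4.38 ± 0.809, 2.75 ± 0.0842 and 9.39 ± 1.33 (SD, n = 3 each), and no 2 neighbours in the order overlapped. The rise without Trim33 was 3.27-fold on day 2 (log2 1.71 ± 0.26, adjusted p = 0.00111) and 3.39-fold on day 2.5 (log2 1.76 ± 0.21, adjusted p = 9.43e-06). Dusp8 also rose from day 2 to day 2.5 in both genotypes, by 1.07 ± 0.28 in control (adjusted p = 0.0158) and by 1.12 ± 0.20 without Trim33 (adjusted p = 0.00124) on the log2 scale. The call in control ended under several alternatives: the adjusted p was 0.0556, 0.0752 and 0.0530 without day 2 control replicate 2, day 2 control replicate 3 or day 2.5 control replicate 3, 0.0544 with only the libraries compared, 0.0774 without both controls numbered 2 and 0.0653 without the 3 libraries that stood apart.

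The Spry genes encode Sprouty proteins, which are induced by receptor tyrosine kinase signalling and block it between the receptor and RAF. Spry4 had the widest range of the Sprouty genes. On day 2.5 it stood at 44.8, 23.3 and 34.1 CPM in control and at 93.7, 93.0 and 87.4 CPM in Trim33-deficient libraries, with no overlap (2.65-fold, log2 1.41 ± 0.33, adjusted p = 0.00871). On day 2 the values were 52.5, 27.1 and 46.4 CPM in control and 104, 55.6 and 56.4 CPM without Trim33. The groups did not overlap, but Trim33-deficient replicate 1 was far above the rest of its group and control replicate 2 was far below its own, and the difference did not pass (log2 0.76 ± 0.33, adjusted p = 0.205). The order of the 4 group means was day 2.5 control, day 2 control, day 2 Trim33-deficient and day 2.5 Trim33-deficient, and the days overlapped within each genotype.

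Spry2 had the same order and a narrower spread. It stood at 99.5, 76.6 and 102 CPM in day 2 control, 143, 117 and 115 CPM in day 2 Trim33-deficient, 99.9, 79.3 and 92.9 CPM in day 2.5 control and 147, 142 and 136 CPM in day 2.5 Trim33-deficient libraries. All 6 libraries without Trim33 were above all 6 controls. The rise was 1.56-fold on day 2.5 (log2 0.64 ± 0.11, adjusted p = 0.000818) and 1.34-fold on day 2 (log2 0.43 ± 0.12, adjusted p = 0.0386). The day 2 call ended when a single day 2 library other than Trim33-deficient replicate 3 was omitted: the adjusted p was 0.0593, 0.0647 and 0.0506 without control replicates 1, 2 and 3, and 0.129 and 0.0600 without Trim33-deficient replicates 1 and 2. It also ended with no filter on low counts (0.0749) and with only the libraries compared in the fit (0.0784).

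Spry1 was the member whose fold change without Trim33 was negative on both days. It stood at 30.1, 47.0 and 33.1 CPM in day 2 control and 31.3, 36.3 and 31.7 CPM in day 2 Trim33-deficient libraries, then at 31.4, 47.7 and 36.8 CPM in day 2.5 control and 25.1, 26.0 and 33.0 CPM in day 2.5 Trim33-deficient libraries. Control replicate 2 was the highest library on each day, and the groups overlapped. Neither difference passed (day 2 log2 -0.15 ± 0.19, adjusted p = 0.674; day 2.5 log2 -0.45 ± 0.19, adjusted p = 0.0728). Without day 2 control replicate 2 the day 2 value turned to 0.069. On day 2.5 the adjusted p was 0.0318 without control replicate 1, 0.0388 without Trim33-deficient replicate 3 and 0.0210 by DESeq2, so Spry1 was lower under these alternatives. In the GENCODE M21 basic annotation the exons of Spry1 share 710 bases with Gm42922 on the opposite strand, and the strand setting of the counting is not given in the sources used here, so reads of the 2 genes may not be separable. The ratio of Spry4 to Spry1 counts was 1.43, 0.488 and 0.926 in day 2.5 control libraries and 3.73, 3.58 and 2.65 in Trim33-deficient ones. On day 2 it was 1.74, 0.577 and 1.40 against 3.34, 1.53 and 1.78, where the groups overlapped.

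The sequence before the start site is shown for Dusp6 and Spry2, which rose on day 2.5, and for Spry1, which did not pass, because ERK acts on many target genes through ETS-family transcription factors. The windows are the 250 bases before the RefSeq start in GRCm38.p6, at chr10:99262981-99263230 on the plus strand for Dusp6, chr14:105896820-105897069 on the minus strand for Spry2 and chr3:37639697-37639946 on the plus strand for Spry1, each 5′ to 3′ along the gene. Capitals mark GGAA, the invariant core of ETS sites, and its reverse complement TTCC.
Dusp6: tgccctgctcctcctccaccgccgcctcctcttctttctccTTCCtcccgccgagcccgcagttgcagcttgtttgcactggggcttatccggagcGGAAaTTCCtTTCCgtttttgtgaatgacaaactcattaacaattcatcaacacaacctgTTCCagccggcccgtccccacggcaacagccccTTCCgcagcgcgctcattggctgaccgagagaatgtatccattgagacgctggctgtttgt
Spry2: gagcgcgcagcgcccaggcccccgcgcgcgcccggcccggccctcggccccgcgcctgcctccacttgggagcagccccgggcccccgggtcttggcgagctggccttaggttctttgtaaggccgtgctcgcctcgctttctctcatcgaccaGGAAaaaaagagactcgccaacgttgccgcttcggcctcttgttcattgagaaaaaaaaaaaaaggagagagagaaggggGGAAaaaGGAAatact
Spry1: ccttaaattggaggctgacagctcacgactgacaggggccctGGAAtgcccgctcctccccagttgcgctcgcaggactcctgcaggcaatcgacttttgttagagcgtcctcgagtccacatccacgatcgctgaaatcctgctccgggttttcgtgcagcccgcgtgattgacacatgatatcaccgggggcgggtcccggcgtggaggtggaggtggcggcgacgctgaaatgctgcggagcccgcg
The core was found 6 times in the Dusp6 window, 3 times in that of Spry2 and 1 time in that of Spry1. The 3 windows shown do not stand for a rule: Spred2 and Etv5 did not pass on day 2.5, yet the window of Spred2 held it 7 times and those of Etv5 4 and 0 times. Spred1, which rose, held it 4 times, and Dusp8, the member with the largest rise, 1 time. It is common: 93.4% of 32851 promoter windows of that length hold it. Windows were matched by symbol for 7 of the 10 genes, with 2 for Etv5, and not for Dusp4, Spry4 and Etv4. Of these 8 windows 7 held GGAA on either strand, while 0 held CCGGAA, a longer ETS core that contains GGAA, and 0 held the AP-1 motif TGANTCA, the TCF and LEF motif CTTTGAT or the SMAD motif CAGACA, all sought on both strands. The shares of all windows with these motifs were 12, 6.75, 3.21 and 17.1%. A match describes the letters only, and no binding was measured here.

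The Spred genes encode Sprouty-related proteins that hold the RAS inhibitor neurofibromin at the membrane. Spred1 stood at 98.7, 85.6 and 103 CPM in day 2 control, 132, 101 and 107 CPM in day 2 Trim33-deficient, 106, 101 and 106 CPM in day 2.5 control and 136, 130 and 122 CPM in day 2.5 Trim33-deficient libraries. It rose 1.24-fold on day 2.5, without overlap (log2 0.31 ± 0.09, adjusted p = 0.00980), and did not pass on day 2 (log2 0.24 ± 0.09, adjusted p = 0.109). Spred2 lay between 67.4 and 81.8 CPM over all 12 libraries, and all groups overlapped. Its log2 fold change was 0.07 ± 0.06 on both days (adjusted p = 0.520 on day 2 and 0.409 on day 2.5).

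Etv4 and Etv5 encode ETS-family transcription factors of the PEA3 group, which carry out part of the transcriptional response to FGF. Etv4 stood at 32.4, 26.7 and 32.9 CPM in day 2 control and 41.9, 27.4 and 29.1 CPM in day 2 Trim33-deficient libraries, which overlapped (log2 0.08 ± 0.19, adjusted p = 0.844). On day 2.5 it stood at 24.0, 13.9 and 22.0 CPM in control and 32.2, 28.2 and 27.5 CPM without Trim33 (1.45-fold, log2 0.53 ± 0.19, adjusted p = 0.0450). Leaving out a single day 2.5 library other than control replicate 1 ended that call, with adjusted p-values of 0.0949 and 0.0641 without control replicates 2 and 3 and of 0.134, 0.0771 and 0.0649 without Trim33-deficient replicates 1, 2 and 3. Upper-quartile factors (adjusted p = 0.0549) and no filter on low counts (0.0906) ended it as well. In control bodies all 3 day 2.5 libraries were below all 3 day 2 libraries, but the difference did not pass (log2 -0.60 ± 0.20, adjusted p = 0.0601), although it passed by DESeq2 (adjusted p = 0.00747), without day 2.5 control replicate 1 (0.0428) and without the 3 libraries that stood apart (0.000929).

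Etv5 had the narrowest range of the 10, with a highest library 1.19 times the lowest. It stood at 393, 408 and 402 CPM in day 2 control, 404, 391 and 374 CPM in day 2 Trim33-deficient, 354, 348 and 344 CPM in day 2.5 control and 361, 360 and 374 CPM in day 2.5 Trim33-deficient libraries. Between the days it fell in control bodies by 0.20 ± 0.04 on the log2 scale (adjusted p = 0.00488), with no overlap. Without Trim33 the difference between the days was -0.09 ± 0.04 (adjusted p = 0.156), and the groups overlapped. Trim33 loss gave -0.04 ± 0.04 on day 2 (adjusted p = 0.579) and 0.07 ± 0.04 on day 2.5 (adjusted p = 0.226), where the libraries did not overlap but the call was not made. Per kilobase of exon in the GENCODE M21 basic annotation, which is not the one used for counting, Etv5 had the highest mean of the 10 in day 2.5 control, at 86.6 CPM per kb, followed by Dusp6 at 49.4 and Spry2 at 43.5, with Dusp8 last at 0.573 CPM per kb.

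**Figure D2:**
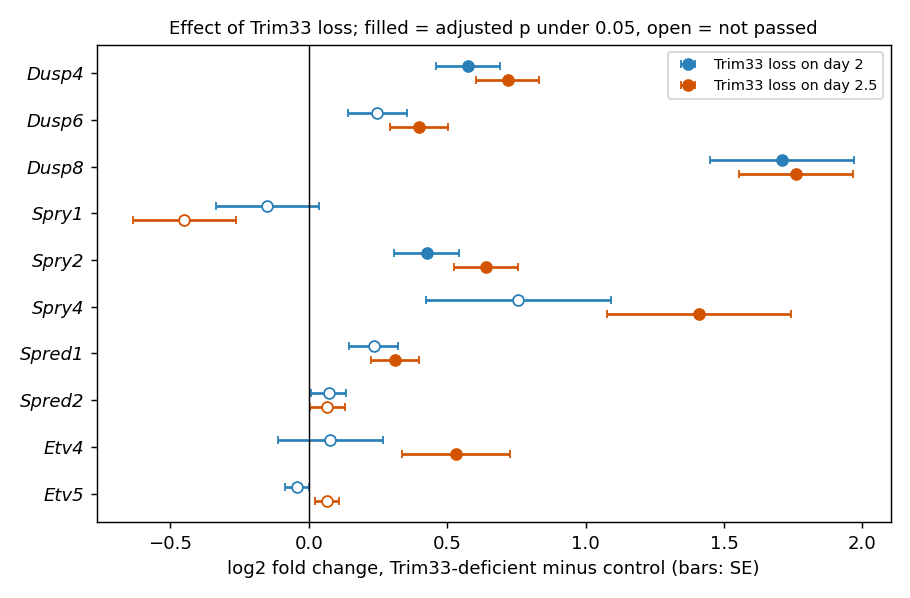
Log2 fold change of Trim33-deficient against control with its SE for each gene on day 2 and on day 2.5; filled points passed at an adjusted p under 0.05. On day 2.5 the 7 genes that passed lie between 0.31 (Spred1) and 1.76 (Dusp8), and Spry1 lies at -0.45.

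From day 2 to day 2.5 the members passed at shares near those of all genes in the main fit, which has no replicate block. With a block within the compared groups more members passed in both genotypes, as given in the closing section. The share of all genes was not computed for that block, so the gain cannot be set against it. In control bodies Dusp8 rose and Etv5 fell, and 8 did not pass, where 16.1% of all genes passed, 8.20% upward and 7.91% downward. Without Trim33 Dusp8 rose, 0 fell and 9 did not pass, where 16.0% of all genes passed, 9.09% upward and 6.93% downward. Of those 9, Spred1 and Etv5 had an unadjusted p under 0.05 (0.0367 higher and 0.0458 lower), and DESeq2 called 0 members lower. The days did not overlap for 3 members in control (Dusp8, Etv4 and Etv5) and for 1 without Trim33 (Dusp8), against 31.2% and 38.7% of all genes tested. Without the 3 libraries that stood apart the members called were 3 in control, all lower (Spry4, Etv4 and Etv5), and 6 without Trim33, all higher. Of all genes 16.4% and 25.5% passed in that fit. These comparisons share libraries with the genotype comparisons, so the members' values under each are not separate evidence.

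The effect of Trim33 loss differed between the days for 0 of the 10 genes in the edgeR test of the interaction, where 4.01% of all genes passed, 2.77% with a larger and 1.24% with a smaller value on day 2.5. The count was also 0 at an unadjusted p under 0.05 and by DESeq2. Spry4 had the largest estimate (0.65 ± 0.47 on the log2 scale, adjusted p = 0.477), followed by Etv4 (0.46 ± 0.27, adjusted p = 0.370). This count depended on the libraries that stood apart. Without all 3 of them, an alternative chosen after seeing the data, the effect was larger on day 2.5 for 6 members: Spry4 (1.03, adjusted p = 8.67e-05), Etv4 (0.55, 0.00623), Dusp6 (0.35, 0.00176), Spry2 (0.35, 0.00490), Dusp4 (0.34, 0.0313) and Spred1 (0.24, 0.0468). In that fit 13.4% of all genes passed. It omits a library from each group but day 2.5 Trim33-deficient. The omitted libraries hold many of the members' extreme values, so leaving them out can narrow the spread. P-values of that fit are therefore not on the same footing as those with all libraries. Among the members compared between the days without Trim33, 6 in place of 1 then rose, where 25.5% of all genes passed. The number was 3 without day 2 Trim33-deficient replicate 1 alone, where Dusp6 and Spred1 passed beside Dusp8. For the fit without that library the share of all genes was not computed. On day 2.5 the 7 calls by genotype were also made without the 3 libraries, and on day 2 the 3 calls, but the day 2 estimate fell from 0.57 to 0.34 for Dusp4, from 0.43 to 0.21 for Spry2 and from 0.76 to 0.18 for Spry4. Of all genes 45.5% passed by genotype on day 2.5 and 11.2% on day 2 without the 3 libraries.

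**Figure D3:**
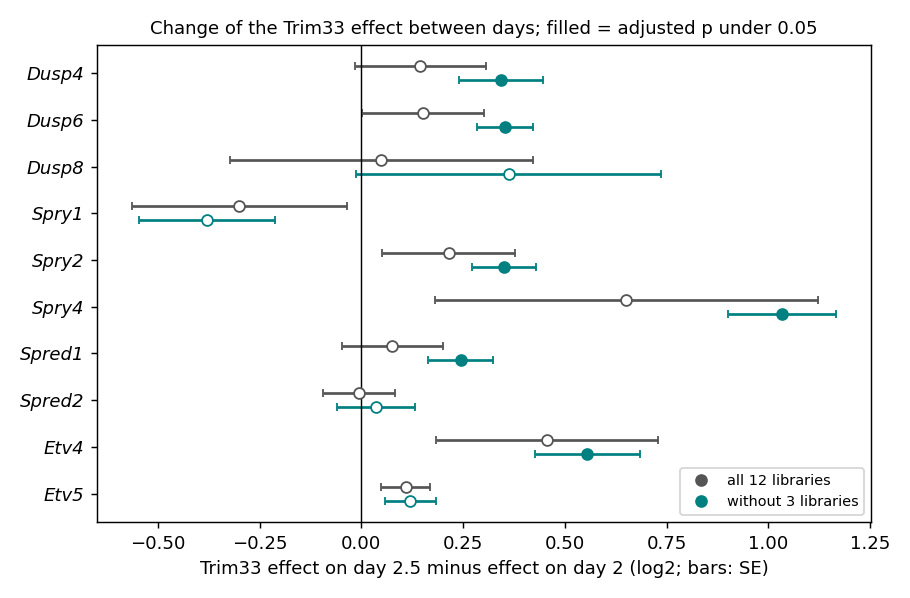
Difference between the Trim33 effect on day 2.5 and that on day 2 (log2, with SE) for each gene, with all 12 libraries and without the 3 that stood apart; filled points passed. No point is filled with all libraries, and 6 are without the 3, from Spred1 at 0.24 to Spry4 at 1.03. The 3 hold many of the members' extreme values and were omitted after seeing the data, so p-values with and without them are not on the same footing.

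Many of the members' extreme values lay in the libraries that stood apart. Day 2 Trim33-deficient replicate 1 held the highest value of all 12 libraries for 5 members (Dusp4, Dusp6, Spry4, Spred2 and Etv4), and its naive marker sum, 294 CPM, was above the 223 and 207 CPM of its group. Day 2 control replicate 2 held the lowest value for 5 members (Dusp4, Dusp6, Dusp8, Spry2 and Spred1) and day 2.5 control replicate 2 for 2 (Spry4 and Etv4). These 2 control libraries held instead the highest values of Etv5 and Spry1. Their naive marker sums were 127 and 81.7 CPM, inside the range of their groups. Whether the share of Rn45s or the hypoxia response plays a part in these values was not tested. Without both control libraries numbered 2, the genotype comparison passed the same number of members on day 2 (3) and 6 in place of 7 on day 2.5, where Etv4 did not pass (adjusted p = 0.0839). Of all genes 13.9% passed on day 2 and 43.8% on day 2.5 in that fit.

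**Figure D4:**
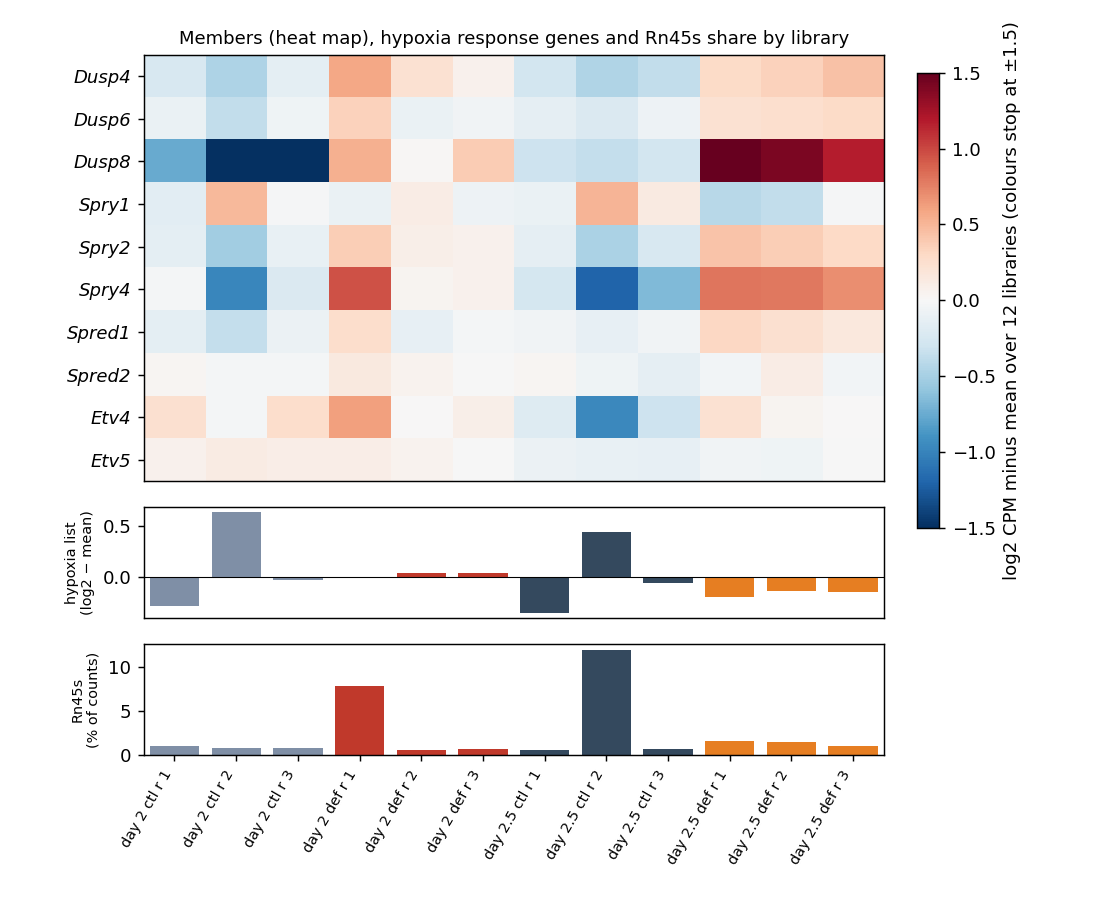
Heat map of each gene's log2 CPM minus its mean over the 12 libraries (columns, in label order), above bars for the mean of 14 hypoxia response genes and for the share of Rn45s in counts. Spry4 is lowest in the control libraries numbered 2, where the hypoxia bars reach 0.63 and 0.44, and highest in day 2 Trim33-deficient replicate 1, where Rn45s is 7.87%.

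Upstream of ERK, FGF ligands, carriers and receptors were counted against all genes, of which 22.0% rose and 20.7% fell on day 2.5. Of 15 measured ligands, carriers and receptors 4 rose, 6 fell and 5 did not pass, with a median log2 fold change of -0.09. The genes that rose were carriers or receptors, while each ligand gene fell or did not pass. Fgfbp1, a carrier that releases FGFs from the matrix, rose by 3.05 ± 0.13 on the log2 scale (adjusted p = 3.56e-09). The ligand genes Fgf8, Fgf15 and Fgf5 fell by 1.69 ± 0.22 (adjusted p = 2.52e-05), 1.07 ± 0.12 (8.62e-06) and 0.56 ± 0.09 (0.000159). On day 2 only Fgfbp1 rose and Fgf15 fell among the 15, where 5.94% of all genes rose and 3.90% fell.

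Genes of the cascade between receptor and ERK were counted in the same way, against 22.0% of all genes up and 20.7% down. Of 23 components 7 rose, 7 fell and 9 did not pass on day 2.5 (median 0.06). The receptor adaptor Frs2, which links FGF receptors to the cascade, rose by 0.57 ± 0.06 (adjusted p = 2.06e-06), the RAS exchange factor Sos2 by 0.65 ± 0.11 (0.000184) and the ERK-activated kinase Rps6ka1 by 0.41 ± 0.06 (0.000104). On day 2 Frs2, Sos2 and Rps6ka1 rose and 0 of the 23 fell, while 2 were lower at an unadjusted p under 0.05. Over all genes 5.94% rose and 3.90% fell on day 2.

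Other feedback regulators did not all follow the 10 members. The division into members and others was made with earlier results of these data known, so the contrast is descriptive only. Of 15 tested genes of that list 5 rose, 4 fell and 6 did not pass on day 2.5 (median -0.05). The shares of all genes were 22.0% up and 20.7% down. Etv1, the third gene of the PEA3 group, rose by 0.91 ± 0.13 (adjusted p = 5.15e-05). Dusp7, an ERK phosphatase close to Dusp6, fell by 0.64 ± 0.08 (2.09e-05), the receptor regulator Lrig3 by 0.53 ± 0.07 (2.52e-05), and Il17rd, an FGF receptor antagonist, by 0.32 ± 0.07 (0.00109). On day 2 3 rose and 3 fell, where 5.94% of all genes rose and 3.90% fell.

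Early and growth genes that ERK can induce were also counted against all genes, of which 22.0% rose and 20.7% fell on day 2.5. Of 19 tested 9 rose, 2 fell and 8 did not pass on day 2.5 (median 0.38). On day 2 4 rose and 1 fell, where 5.94% of all genes rose and 3.90% fell. Plaur, the urokinase receptor, rose by 2.00 ± 0.22 (adjusted p = 1.22e-05), the AP-1 subunit Jun by 1.10 ± 0.12 (3.78e-06) and the survival gene Mcl1 by 0.45 ± 0.06 (3.93e-05). The cyclin gene Ccnd1 fell by 0.58 ± 0.09 (0.000116). Egr1, an early gene often read as an ERK output and added here after its values were seen, gave -0.17 ± 0.18 (adjusted p = 0.450).

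**Figure D5:**
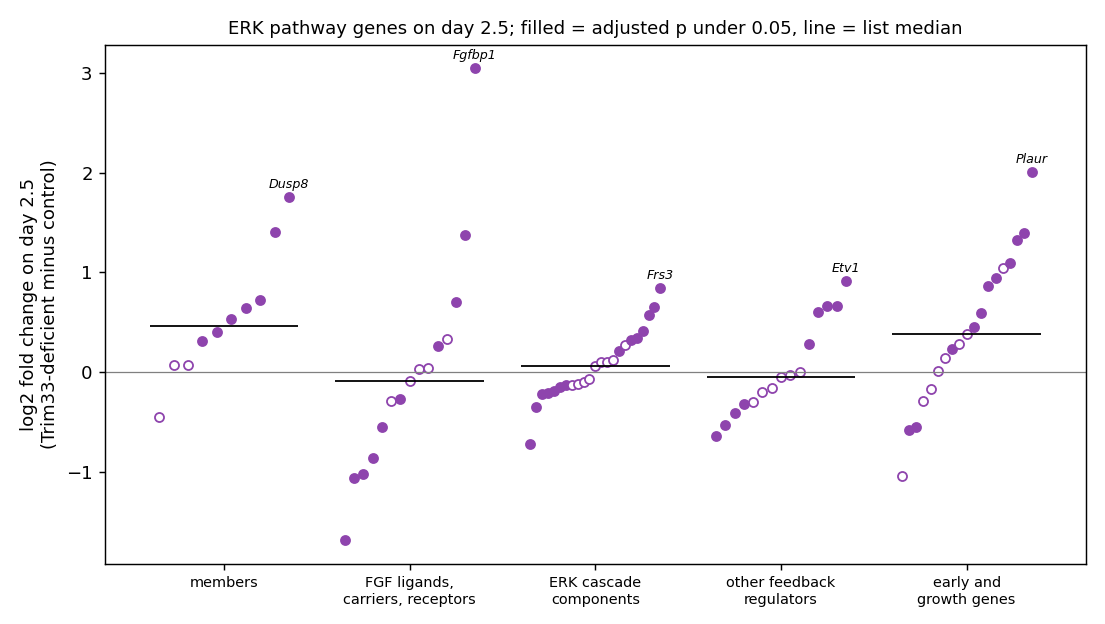
Log2 fold change on day 2.5 for the 10 members and for each tested gene of 4 other ERK pathway lists, ordered within a list; filled points passed, lines are list medians, and the highest gene of each list is named. The members' median is 0.47, against -0.09 for FGF ligands, carriers and receptors, 0.06 for the cascade, -0.05 for other feedback regulators and 0.38 for early and growth genes. Members and lists were chosen with earlier results of these data known, so the medians only describe these lists.

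The profiles of members over the 12 libraries were compared by the root mean square difference of log2 CPM, each gene centred on its own mean. Among the members Dusp6 lay nearest to Spred1 (0.07), Etv5 to Spred2 (0.09) and Dusp4 to Spry2 (0.11). Etv5 and Spred2 varied little over the libraries, and genes that vary little lie close by this measure. For the 3 members with the smallest adjusted p on day 2.5 the nearest other genes were named. Nearest to Spry2 were Sulf1, a heparan sulfate 6-O-endosulfatase (0.05), Socs2 (0.07) and Zfp36l1 (0.08). Zfp36l1 (0.11), Ppap2b (0.11) and Socs2 (0.11) were nearest to Dusp4. Nearest to Dusp8 were Ctgf (0.24), Prex2 (0.25) and Mme (0.32). All points share the library, its depth and its group, so these values describe likeness only.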

How the data were processed

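RNA was sequenced from 12 libraries, 3 for each of 4 groups taken from the sample titles. The deposited files hold raw counts per gene symbol. Per the submitters' processing notes, the authors used STAR, HTSeq, DESeq and the build mm9; no version, annotation or strand setting is stated in what was used here. In every file 5 rows at the end name no gene, and library sizes and tests leave them out; 39.3 to 43.9% of the reads counted were assigned to genes. In 1 file 27 gene names turned into dates were restored by row position. All genes were fitted with edgeR 4.0.16 (R 4.3.3) by the quasi-likelihood method, robust, with TMM factors, 4 group means and 8 residual degrees of freedom. The filter filterByExpr left 14356 genes, all 10 members among them, whose lowest count in a library was 11. A gene was called at an adjusted p under 0.05 (Benjamini-Hochberg over all genes tested), and "rose" or "fell" refers to such calls. Each SE is the size of the fold change divided by the square root of F; an SD is over 3 libraries. DESeq2 1.42.0 and other factors, filters, blocks and left-out libraries were alternatives. The fit was tested on simulated counts. The members and gene lists were chosen with earlier results of these data known; the hypoxia list, the GGAA motif and 2 alternatives were added later. All members, up to 4 genes per pathway list with the smallest adjusted p on day 2.5, and the 3 genes nearest to each of 3 members were named, and 1 gene that this rule gives is not reported here. Promoter sequences are from RefSeq on GRCm38.p6, a different build from that of the counts, whose files hold no coordinates.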

Additional observations from a re-analysis of the deposited data

How the results depend on the processing

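The calls of Dusp4 and Dusp8 on both days and of Dusp6, Spry2, Spry4 and Spred1 on day 2.5 were made under all 16 alternatives run on each. The labels do not say that replicate numbers mark the pairs, and the deviations of same-numbered libraries did not all go together: correlations were -0.08 to 0.17 within a day (6 pairs) and -0.08 to 0.45 over all 18 pairs, with 4 over 0.1. The highest were between control libraries of different days, 0.36 for replicate 1 and 0.45 for replicate 2, where replicate 3 gave 0.03. The main test of time in control takes no account of this. With a replicate block within the compared groups the members called were 5 in place of 3 for Trim33 loss on day 2, 5 in place of 2 for time in control and 3 in place of 1 for time without Trim33; those gained were Spry4 and Spred1 on day 2, Spry4, Spred1 and Etv4 in control, and Spry2 and Spred1 without Trim33. With a block over all libraries the last was 2, where 19.4% of all genes passed. For the block within the compared groups the share of all genes was not computed, so its gains cannot be set against that share. Spry1 was called lower on day 2.5 with either block (adjusted p = 0.0141 and 0.0175), and Etv4 in control likewise (0.00222 and 2.97e-07). Time in control gave 1 with only the libraries compared and 1 without both controls numbered 2, where 13.6% of all genes passed. Without the 3 libraries that stood apart, time without Trim33 and the change of the Trim33 effect each gave 6 (in place of 1 and 0), where 25.5% and 13.4% of all genes passed. Leaving out 1 library at a time gave 1 to 3 for time in control and 1 to 3 for time without Trim33, and shares of all genes were not computed for these fits. The cause of these differences between settings was not tested. Some differences (log2) that did not pass changed sign, and none of these passed after the change. The change of the effect became 0.00011 for Spred2 (-0.00 with all libraries) with DESeq2 and -0.0057 for Dusp8 with the block within groups. Without the 3 libraries, Trim33 loss on day 2 gave 0.11 for Spry1 and -0.20 for Etv4, time gave -0.024 for Dusp6 in control and 0.051 for Etv4 without Trim33, and the change of the effect gave 0.037 for Spred2. Without both controls numbered 2, Trim33 loss on day 2 gave 0.075 for Spry1 and -0.018 for Etv4, and time in control -0.024 for Dusp6. Leaving out 1 library at a time, Trim33 loss on day 2 ranged from -0.27 to 0.069 for Spry1 and -0.12 to 0.19 for Etv4. Time in control ranged from -0.061 to 0.082 for Dusp6, -0.11 to 0.28 for Spry1 and -0.15 to 0.055 for Spry2, and time without Trim33 from -0.051 to 0.21 for Dusp4 and -0.26 to 0.053 for Etv4. The change of the effect ranged from -0.38 to 0.29 for Dusp8, -0.0024 to 0.19 for Spred1 and -0.056 to 0.040 for Spred2. Depth limits Dusp8 most among the members: 3 counts, the floor, equal 0.179 to 0.318 CPM, against 0.851 CPM in its lowest library.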
